A study of Mus musculus with 32 samples.

Results

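Feedback on the ERK kinase pathway was followed through 10 genes: the phosphatase genes Dusp1, Dusp2, Dusp4, Dusp5 and Dusp6, the Sprouty genes Spry1, Spry2 and Spry4, and the SPRED genes Spred1 and Spred2. They were found by symbol among the 39017 genes of the deposited count table, and all 10 passed the filter on low counts that left 18484 genes for testing. RNA came from mouse embryonic fibroblasts, cells grown out of embryos, of 4 lines: the ATM knock-out and the wild type paired with it (wtATM), the ATMIN knock-out and the wild type paired with that (wtATMIN). The kinase ATM acts in the response to DNA breaks, and ATMIN is one of its binding partners. Cultures received aphidicolin (APH, 1 µM), which inhibits replicative DNA polymerases, or the solvent DMSO, for 24 h or 4 h. The 4 lines, 2 treatments and 2 times make 16 groups of 2 samples, so 8 samples per line. One line stands for each genotype, so an effect of the genotype and a difference between lines cannot be told apart, and the labels give neither the knock-out alleles nor the age of the embryos. Nothing in the labels states that the samples of a group were separate cultures. The p-values therefore describe spread between samples, which may be technical.

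Growth factor receptors activate Ras, which switches on the kinases RAF, MEK and ERK in turn, and active ERK changes transcription. Among the genes that it raises are its own inhibitors. DUSP phosphatases remove the activating phosphates from MAP kinases: DUSP6 acts on ERK in the cytoplasm, DUSP5 on ERK in the nucleus, DUSP2 and DUSP4 on MAP kinases in the nucleus, and DUSP1 on p38 and JNK as well as ERK. Sprouty proteins limit signalling between receptors and ERK, and SPRED proteins bring neurofibromin to the membrane, where it turns Ras off. RNA levels of these genes are often read as a sign of ERK pathway output, but they also respond to other signals, and RNA does not measure ERK activity.

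The promoters of Dusp1, Dusp5 and Dusp6 are shown because these are the 3 members with the most calls in the APH comparisons described further on. Each sequence runs 5′ to 3′ on the gene's strand from 250 bases before to 50 bases after the transcription start (RefSeq, GRCm38.p6). Capitals mark a cAMP response element (CRE, TGACGTCA) in Dusp1 and a pair of adjacent CArG boxes, the motif of serum response factor, in Dusp5.
Dusp1, chr17:26508423-26508722, minus strand: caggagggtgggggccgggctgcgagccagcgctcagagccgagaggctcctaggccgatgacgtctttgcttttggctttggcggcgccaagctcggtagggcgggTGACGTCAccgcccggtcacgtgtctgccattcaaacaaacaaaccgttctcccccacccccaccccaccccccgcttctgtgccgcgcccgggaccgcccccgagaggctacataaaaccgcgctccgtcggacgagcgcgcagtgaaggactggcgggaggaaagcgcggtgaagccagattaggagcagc
Dusp5, chr19:53528895-53529194, plus strand: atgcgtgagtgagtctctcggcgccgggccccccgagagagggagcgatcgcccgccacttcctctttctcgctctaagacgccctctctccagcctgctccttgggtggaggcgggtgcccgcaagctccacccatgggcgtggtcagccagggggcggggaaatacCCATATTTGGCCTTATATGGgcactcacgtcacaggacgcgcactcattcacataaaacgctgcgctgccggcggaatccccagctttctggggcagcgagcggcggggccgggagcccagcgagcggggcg
Dusp6, chr10:99262981-99263280, plus strand: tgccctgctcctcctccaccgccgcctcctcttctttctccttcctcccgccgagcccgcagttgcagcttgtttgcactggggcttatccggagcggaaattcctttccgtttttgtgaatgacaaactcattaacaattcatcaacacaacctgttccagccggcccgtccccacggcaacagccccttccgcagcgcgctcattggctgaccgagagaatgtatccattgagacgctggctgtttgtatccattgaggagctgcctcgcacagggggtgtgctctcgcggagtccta
The Dusp1 CRE starts at −143 from the start site, and 1.79% of the 32851 RefSeq promoters of this length hold that motif. The Dusp5 CArG boxes start at −82 and −72 without overlapping, and 1.63% of promoters hold at least 1 CArG box. The letters of Dusp6 contained none of the motifs searched, which were also an AP-1 site (TGANTCA, in 7.81% of promoters), an ETS site (CCGGAAG, in 8.86%) and a TATA box (TATAAA, in 8.32%). CRE, AP-1, ETS and CArG motifs were searched on both strands and the TATA box on the gene's strand. Promoters of Dusp2, Spry1, Spry2, Spred1 and Spred2 were matched too and held none of the 5 motifs. A match describes letters only, and its absence from this window says nothing about a factor.

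Total counts ran from 9321329 to 21020662 reads per sample. Samples of a group correlated with r of 0.9908 to 0.9943 over genes, except ATM knock-out APH 4 h, where r was 0.9808. Its replicate 1 had a scaling factor of 0.8492, against at least 0.9123 in the other 30 libraries, and its replicate 2 was the shallowest library. The ribosomal sequence Gm42418 took 252 to 5750 CPM (read counts scaled to TMM library size) in the 24 h libraries and 13800 to 97900 CPM in the 4 h libraries, DMSO included. The value of 97900 CPM came from ATM knock-out APH 4 h replicate 1, and the next highest 4 h library had 41300 CPM. Atmin stood at 3.77 to 6.77 CPM in the ATMIN knock-out line and at 20.4 to 32.9 CPM in wtATMIN. The range of Atm was 17.8 to 45.5 CPM in the ATM knock-out line and 43.1 to 65.1 CPM in wtATM, and reads summed over a gene cannot show whether part of it is deleted. All 12 fibroblast markers passed the filter, and their summed level was 14500 to 19600 CPM in the ATM knock-out line, 21700 to 25900 CPM in wtATM, 16700 to 33600 CPM in the ATMIN knock-out line and 8550 to 13500 CPM in wtATMIN. Summed markers of epithelial, endothelial and leukocyte cells stayed at or below 7.94, 2.12 and 27.6 CPM. Of the fibroblast markers, Thy1 ran from 0 to 276 CPM and Lum from 0 to 3.4 CPM. In bulk RNA, fewer cells that use a gene and less RNA per cell cannot be told apart.

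Per kilobase of the authors' gene length, Dusp1 had the highest median level over the 32 samples, at 23.5 CPM per kb (range 3.71 to 55.4). Dusp6 (13.9), Dusp5 (13.4), Spred2 (12.7), Spred1 (10.6) and Spry2 (7.54 CPM per kb) followed. Dusp4 (1.61), Spry1 (1.58), Dusp2 (0.278) and Spry4 (0.26 CPM per kb) were lower. The sample ranges of all neighbours in this order overlapped. Dusp2, best known from immune cells, had at most 33 reads in any library. Spry4 had 2 to 71 reads per library outside the ATM knock-out line and Spry1 had 6 to 20 in wtATM, so changes there are imprecise. Spred1 varied least between samples, 2.85-fold from the lowest to the highest, and Spry4 varied 371-fold. Dusp1, Dusp5 and Spry1 have exons that overlap the span of a gene on the opposite strand (Ergic1, AC137853.2 and Gm42922). Whether they meet exons of those genes was not examined. The strand setting of the authors' counting is not given in the sources used here, so any reads shared with those genes cannot be told apart.

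After 24 h of APH, the phosphatase genes Dusp1 and Dusp6 were higher than in DMSO in all 4 lines, as were 2.68% of all genes tested. Dusp5 was lower in the ATM knock-out line and wtATM but higher in the ATMIN knock-out line and wtATMIN. Spry1 was lower in 3 of 4 lines, Spred1 was lower in the ATMIN knock-out line and wtATMIN, and Spry2 passed the test in none, though with library size scaling only it was called higher in wtATMIN (0.31, adjusted p = 0.031). A member was called at an adjusted p under 0.05 in edgeR's quasi-likelihood test. That held for 6 of 10 members in the ATM knock-out line (27.9% of all genes were called), 4 in wtATM (28.7%), 5 in the ATMIN knock-out line (30.2%) and 7 in wtATMIN (28.8%). Over the 4 lines this made 22 of 40 results, or 55%, against 28.9% of all results. There were 14 higher (14.5% of all results were) and 8 lower (14.4%). The members' median log2 change was 0.03, 0.08, 0.18 and 0.36 in the ATM knock-out, wtATM, ATMIN knock-out and wtATMIN lines, beside all-gene medians of 0.01, 0, 0 and 0.

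After 4 h of APH the calls were mainly increases. Dusp6 was higher in all 4 lines, as were 0.444% of all genes tested, and Dusp5 was higher in 3 of 4. Of the 10 members, 3 were called in the ATM knock-out line (29.4% of all genes), 3 in wtATM (5.58%), 5 in the ATMIN knock-out line (20.4%) and 3 in wtATMIN (15%). Of 40 results, 13 were higher (8.39% of all results were) and 1 was lower (9.2%), together 35% against 17.6%. The share of members called in the ATM knock-out line was close to that of all genes. Members' median changes there and in wtATM, the ATMIN knock-out line and wtATMIN were 0.1, 0.39, 0.53 and 0.21, beside all-gene medians of 0, −0.01, −0.02 and −0.01.

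**Figure D1:**
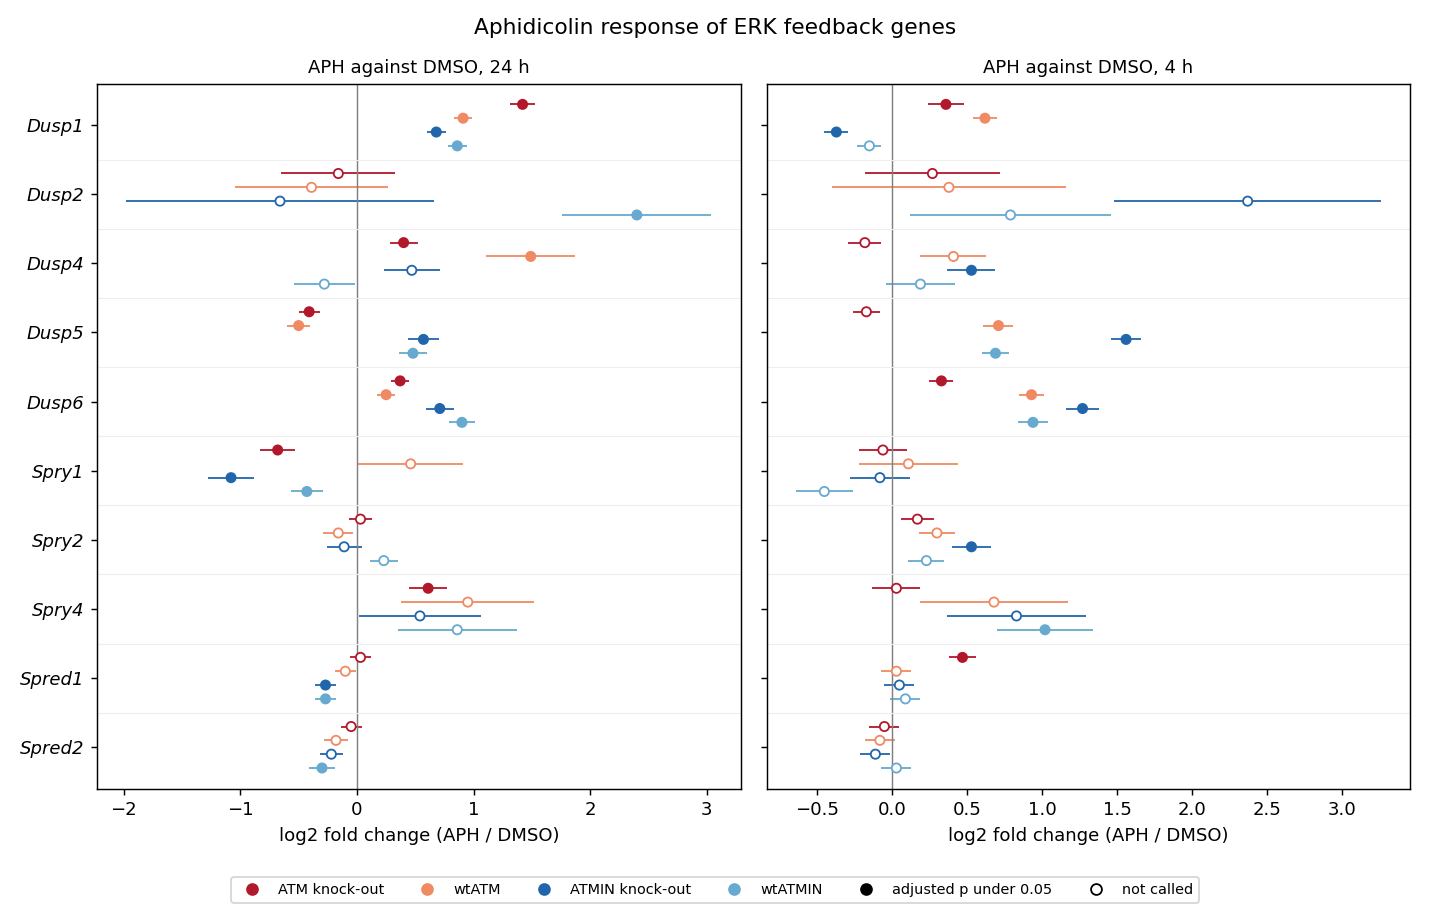
Log2 fold change of APH over DMSO (x axis) with its standard error, for the 10 members (y axis) in the 4 lines at 24 h (left) and 4 h (right). Filled points passed an adjusted p under 0.05. Dusp6 lies right of 0 and filled in every line at both times, while Dusp5 at 24 h lies left of 0 in the ATM knock-out line and wtATM and right of 0 in the other two lines.

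Dusp6, which encodes the cytoplasmic ERK phosphatase, was the only member called higher in all 8 APH comparisons. The share of all genes called higher in all 8 was not computed. At 24 h Dusp6 stood at 119 and 120 CPM with APH, against 92.7 and 92.1 CPM with DMSO, in ATM knock-out cells. In wtATM it stood at 57.3 and 57.3 CPM with APH, against 44.9 and 51.3 CPM with DMSO. ATMIN knock-out cells had 12.5 and 13.5 CPM with APH, against 7.64 and 8.28 CPM with DMSO. The APH samples lay above the DMSO samples in each of these lines, although the lines differed widely in level. Separation of 2 samples from 2 adds little to a call. The members' APH and DMSO samples were apart in 29 of 40 results at 24 h, of which 22 results were called. At 4 h they were apart in 25 of 40, and 14 results were called. The share of all genes with samples apart was not computed. In wtATMIN Dusp6 stood at 18.2 and 20.1 CPM with APH, against 10.3 and 10.2 CPM with DMSO. The log2 changes at 24 h were 0.37 ± 0.08 (SE; adjusted p = 0.000389) in ATM knock-out cells, 0.25 ± 0.08 (adjusted p = 0.019) in wtATM cells, 0.71 ± 0.12 (adjusted p = 1.61e-05) in the ATMIN knock-out line and 0.90 ± 0.11 (adjusted p = 2.63e-08) in wtATMIN. The wtATM call was lost without DMSO replicate 1 (0.16, adjusted p = 0.298), APH replicate 1 (adjusted p = 0.0777) or APH replicate 2 (adjusted p = 0.0743).

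At 4 h, Dusp6 stood at 97.9 and 89.1 CPM with APH, against 78.2 and 70.6 CPM with DMSO, in ATM knock-out cells. In wtATM it stood at 93.1 and 97.3 CPM with APH, against 52.5 and 47.2 CPM with DMSO. The ATMIN knock-out line had 18.7 and 19.6 CPM with APH, against 8.56 and 7.36 CPM with DMSO. Again no APH sample overlapped a DMSO sample of its line. In wtATMIN Dusp6 stood at 28.9 and 33.1 CPM with APH, against 15.8 and 16.4 CPM with DMSO. The log2 change was 0.33 ± 0.08 (adjusted p = 0.00204) in ATM knock-out cells, 0.93 ± 0.08 (adjusted p = 2.35e-10) in wtATM, 1.27 ± 0.11 (adjusted p = 8.18e-11) in the ATMIN knock-out line and 0.94 ± 0.10 (adjusted p = 4.07e-09) in wtATMIN. The ATM knock-out call was lost without DMSO replicate 2 (0.25, adjusted p = 0.0785) and in a fit to the compared groups alone (0.36, adjusted p = 0.114). The response of the ATM knock-out line was smaller than that of wtATM at 4 h by edgeR's test of the difference itself (−0.60 ± 0.12, adjusted p = 0.00147), a call that a fit to the compared groups alone lost (adjusted p = 0.114).

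**Figure D2:**
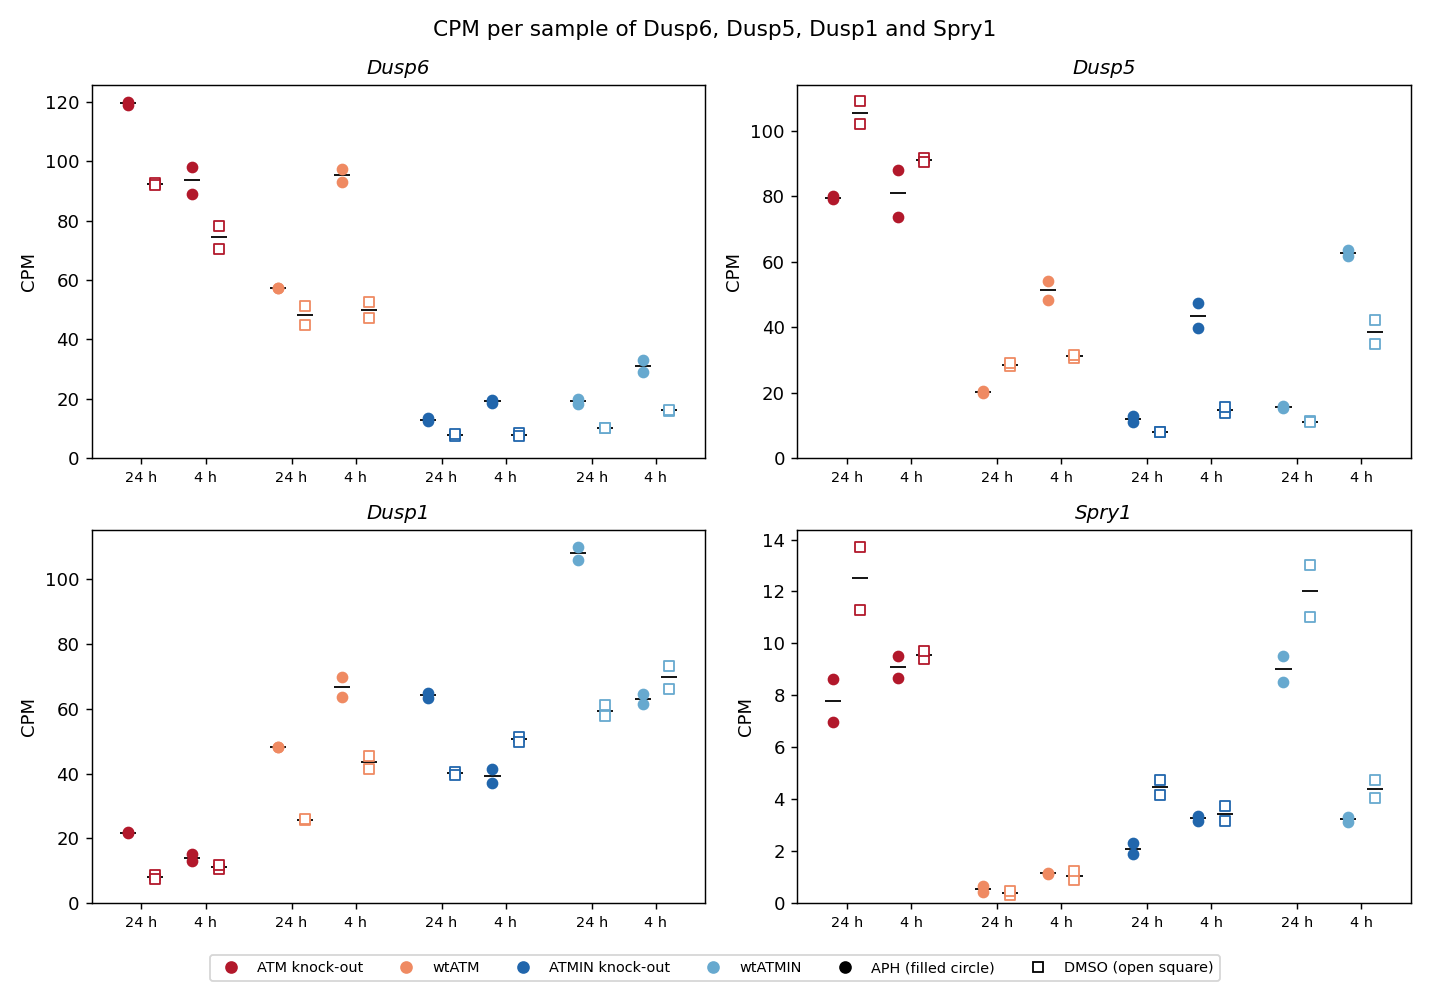
CPM (y axis, from 0) of Dusp6, Dusp5, Dusp1 and Spry1 in each of the 32 samples, by line (colour), time (x axis) and treatment, with the mean of each pair as a short black line. Dusp5 in the ATMIN knock-out line reached 39.7 and 47.4 CPM with APH at 4 h, and Dusp1 rose above its DMSO samples in all 4 lines at 24 h.

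Dusp5, the nuclear ERK phosphatase gene, responded differently by line and by time. At 4 h it stood at 39.7 and 47.4 CPM with APH, against 13.8 and 15.6 CPM with DMSO, in the ATMIN knock-out line (1.56 ± 0.10, adjusted p = 4.37e-14). In wtATMIN it stood at 61.7 and 63.6 CPM with APH, against 35 and 42.4 CPM with DMSO (0.69 ± 0.09, adjusted p = 8.36e-07). In wtATM it stood at 48.5 and 54.2 CPM with APH, against 30.7 and 31.7 CPM with DMSO (0.71 ± 0.10, adjusted p = 2.33e-06). The APH samples were higher in each of these 3 lines. In the ATM knock-out line the values were 88.1 and 73.7 CPM with APH and 91.6 and 90.6 CPM with DMSO, and the change of −0.17 ± 0.09 was not called (adjusted p = 0.164). It was called lower there without APH replicate 1 (−0.32, adjusted p = 0.0131) and with library size scaling only (−0.23, adjusted p = 0.0336). The response of the ATM knock-out line was below that of wtATM (−0.88 ± 0.13, adjusted p = 9.34e-05), and that of the ATMIN knock-out line was above that of wtATMIN (0.87 ± 0.14, adjusted p = 0.000305). A fit to the compared groups alone lost the call for ATM (−0.90, adjusted p = 0.0566).

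By 24 h, Dusp5 stood at 80.1 and 79.1 CPM with APH, against 109 and 102 CPM with DMSO, in ATM knock-out cells (−0.41 ± 0.09, adjusted p = 0.000379). In wtATM it stood at 20.6 and 19.9 CPM with APH, against 28.1 and 29.1 CPM with DMSO (−0.50 ± 0.10, adjusted p = 0.000283). Both lines of the ATM pair thus had lower Dusp5 with APH than with DMSO. ATMIN knock-out cells had 12.8 and 11.2 CPM with APH, against 8.12 and 8.09 CPM with DMSO (0.57 ± 0.13, adjusted p = 0.000919). In wtATMIN it stood at 15.3 and 16.1 CPM with APH, against 11.3 and 11.1 CPM with DMSO (0.48 ± 0.12, adjusted p = 0.00152). The difference between the ATM pair and the ATMIN pair was not tested. The 24 h response was below the 4 h response in wtATM (−1.21 ± 0.14, adjusted p = 8.75e-08) and in the ATMIN knock-out line (−0.99 ± 0.17, adjusted p = 3.03e-05).

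Dusp1, whose product also acts on the stress kinases p38 and JNK, was higher with APH in every line at 24 h. It stood at 21.6 and 22 CPM with APH, against 8.81 and 7.41 CPM with DMSO, in ATM knock-out cells (1.42 ± 0.11, adjusted p = 2.04e-12). In wtATM it stood at 48.3 and 48.3 CPM with APH, against 25.7 and 25.9 CPM with DMSO (0.91 ± 0.08, adjusted p = 2.58e-10). The ATMIN knock-out line had 63.3 and 65 CPM with APH, against 40.5 and 39.7 CPM with DMSO (0.68 ± 0.08, adjusted p = 4.73e-08). No APH sample overlapped a DMSO sample, and these calls held in every alternative fit. In wtATMIN Dusp1 stood at 106 and 110 CPM with APH, against 61.1 and 57.8 CPM with DMSO (0.86 ± 0.08, adjusted p = 6.32e-11). The response of ATM knock-out cells exceeded that of wtATM at 24 h (0.52 ± 0.14, adjusted p = 0.0254). That call was lost without any 1 of 6 libraries (0.40 to 0.53, adjusted p between 0.0705 and 0.232) and with no count filter (adjusted p = 0.0792). The libraries were wtATM DMSO replicates 1 and 2, wtATM APH replicate 1, ATM knock-out DMSO replicate 2 and ATM knock-out APH replicates 1 and 2.

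At 4 h Dusp1 was called in both directions. It stood at 63.5 and 69.9 CPM with APH, against 45.5 and 41.4 CPM with DMSO, in wtATM (0.62 ± 0.08, adjusted p = 1.45e-06). ATMIN knock-out cells had 37 and 41.3 CPM with APH, against 51.3 and 49.8 CPM with DMSO (−0.37 ± 0.08, adjusted p = 0.00092), and the call was lost without APH replicate 1 (−0.29, adjusted p = 0.0547). In the ATM knock-out line it stood at 15.1 and 13.1 CPM with APH, against 10.6 and 11.7 CPM with DMSO (0.36 ± 0.12, adjusted p = 0.0186). So wtATM and the ATM knock-out line were higher and the ATMIN knock-out line was lower. The ATM knock-out call was lost without DMSO replicate 1 (0.27, adjusted p = 0.16) or APH replicate 1 (0.22, adjusted p = 0.278), and in fits with no count filter (adjusted p = 0.0913) or of the compared groups alone (adjusted p = 0.201). In wtATMIN the values were 61.4 and 64.6 CPM with APH and 66.2 and 73.3 CPM with DMSO, a change of −0.15 ± 0.08 that was not called (adjusted p = 0.224). The 24 h response exceeded the 4 h response by 1.07 ± 0.16 in the ATM knock-out line (adjusted p = 8.34e-06), 1.05 ± 0.12 in the ATMIN knock-out line (adjusted p = 1.22e-08) and 1.01 ± 0.11 in wtATMIN (adjusted p = 1.04e-08). In wtATM the difference was 0.29 ± 0.12 (adjusted p = 0.0954).

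The Sprouty gene Spry1 was lower with APH at 24 h in 3 lines. It stood at 8.62 and 6.98 CPM with APH, against 11.3 and 13.7 CPM with DMSO, in the ATM knock-out line (−0.68 ± 0.15, adjusted p = 0.000591). The ATMIN knock-out line had 2.31 and 1.88 CPM with APH, against 4.18 and 4.74 CPM with DMSO (−1.08 ± 0.20, adjusted p = 9.56e-05). In wtATMIN it stood at 8.5 and 9.51 CPM with APH, against 13 and 11 CPM with DMSO (−0.43 ± 0.14, adjusted p = 0.0192). The groups did not overlap in these lines, but the wtATMIN call was lost without DMSO replicate 1 (−0.31, adjusted p = 0.24), without APH replicate 1 (−0.36, adjusted p = 0.163), in DESeq2 (adjusted p = 0.113) and with library size scaling only (adjusted p = 0.063). In wtATM Spry1 had 8 and 10 reads with APH and 6 and 8 reads with DMSO. At 4 h Spry1 passed the test in no line, with changes between −0.45 and 0.11.

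Of the other Sprouty genes, Spry4 was higher with APH at 24 h in the ATM knock-out line, at 38.5 and 43.1 CPM with APH against 26.2 and 27.3 CPM with DMSO (0.61 ± 0.16, adjusted p = 0.00415). That call was lost without DMSO replicate 1 (adjusted p = 0.0504) or APH replicate 2 (0.53, adjusted p = 0.0649). At 4 h it was higher in wtATMIN, at 4.31 and 2.95 CPM with APH against 1.8 and 1.78 CPM with DMSO (1.02 ± 0.32, adjusted p = 0.0258), a call lost without APH replicate 1 (0.71, adjusted p = 0.315), DMSO replicate 1 (adjusted p = 0.0922) or DMSO replicate 2 (adjusted p = 0.16). The APH and DMSO samples were apart in both comparisons. In wtATM at 24 h the change of 0.95 was not called (adjusted p = 0.225), but it reached 2.85 (adjusted p = 0.0223) without DMSO replicate 1, which left a DMSO library with 2 reads. Spry2 was called higher only in the ATMIN knock-out line at 4 h, at 12.9 and 13.5 CPM with APH against 9.69 and 8.51 CPM with DMSO (0.53 ± 0.13, adjusted p = 0.00325). Without DMSO replicate 2 this was 0.44 (adjusted p = 0.0797). In the ATM knock-out line Spry2 was also called higher at 4 h without APH replicate 2 (0.34, adjusted p = 0.0347).

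The phosphatase gene Dusp4 was higher with APH at 24 h in wtATM, at 2.39 and 1.56 CPM with APH against 0.99 and 0.407 CPM with DMSO (1.49 ± 0.38, adjusted p = 0.00287). Without DMSO replicate 1 the change was 2.28, and the call was lost without DMSO replicate 2 (1.01, adjusted p = 0.09) or APH replicate 1 (1.14, adjusted p = 0.101). In the ATM knock-out line it stood at 60 and 62.4 CPM with APH, against 47.7 and 45.3 CPM with DMSO (0.40 ± 0.12, adjusted p = 0.0101), a call lost without DMSO replicate 2 (0.36, adjusted p = 0.0918) or APH replicate 2 (0.37, adjusted p = 0.0807). The Dusp4 groups were apart in both lines at levels that differed widely. At 4 h Dusp4 was called in the ATMIN knock-out line, at 12.3 and 14.3 CPM with APH against 9.07 and 9.21 CPM with DMSO (0.53 ± 0.16, adjusted p = 0.0143). The call was lost without DMSO replicate 1 (adjusted p = 0.0873), DMSO replicate 2 (adjusted p = 0.081) or APH replicate 2 (0.43, adjusted p = 0.166). At 4 h in the ATM knock-out line Dusp4 was called lower only without APH replicate 1 (−0.43, adjusted p = 0.00352). Dusp2 was called once, in wtATMIN at 24 h, with 25 and 10 reads with APH and 4 and 3 reads with DMSO (2.4 ± 0.64, adjusted p = 0.00424), and not without APH replicate 1 (1.67, adjusted p = 0.165) or DMSO replicate 1 (adjusted p = 0.0547). With no count filter it was also called in the ATMIN knock-out line at 4 h (adjusted p = 0.031).

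The SPRED genes moved little with APH, apart from Spred1 in the ATM knock-out line at 4 h. At 24 h Spred1 stood at 64.4 and 62.8 CPM with APH, against 76.8 and 76.2 CPM with DMSO, in the ATMIN knock-out line (−0.27 ± 0.09, adjusted p = 0.0279). In wtATMIN it stood at 57.3 and 59.3 CPM with APH, against 69 and 72 CPM with DMSO (−0.27 ± 0.09, adjusted p = 0.0255). Spred2 in wtATMIN stood at 20.2 and 20 CPM with APH, against 24.2 and 25.4 CPM with DMSO (−0.30 ± 0.11, adjusted p = 0.0383). These changes were small, and all 3 calls were lost with library size scaling only (adjusted p = 0.228, 0.189 and 0.127), and that of Spred2 in DESeq2 as well (adjusted p = 0.0563). Spred1 was lost in the ATMIN knock-out line without any 1 of its 4 libraries (adjusted p between 0.0934 and 0.14), and in wtATMIN without DMSO replicate 2, APH replicate 1 or APH replicate 2 (adjusted p between 0.0645 and 0.131). Spred2 was lost in wtATMIN without any 1 of its 4 libraries (adjusted p between 0.0762 and 0.159). At 4 h Spred1 was higher in the ATM knock-out line, at 99.8 and 119 CPM with APH against 85.3 and 72.2 CPM with DMSO (0.47 ± 0.09, adjusted p = 0.000301). Its response there exceeded that of wtATM (0.44 ± 0.14, adjusted p = 0.033), a difference lost without wtATM DMSO replicate 1 (adjusted p = 0.178), wtATM APH replicate 2 (adjusted p = 0.135), ATM knock-out DMSO replicate 2 (adjusted p = 0.218) or ATM knock-out APH replicate 2 (0.30, adjusted p = 0.232). It was also lost with library size scaling only (adjusted p = 0.132) and in a fit to the compared groups alone (adjusted p = 0.208).

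Tests of the response differences between a knock-out line and its wild type called 3 of 10 members for ATM at 4 h (11.4% of all genes were called), 1 for ATM at 24 h (3.92%), 1 for ATMIN at 4 h (0.671%) and 0 for ATMIN at 24 h (2.43%), or 7.64% and 1.55% of all results for ATM and ATMIN over both times. These were the values of Dusp5, Dusp6, Spred1 and Dusp1 already given. The Dusp4 difference for ATM at 4 h (−0.58 ± 0.24, adjusted p = 0.114) was called with library size scaling only (−0.69, adjusted p = 0.0346), with no count filter (−0.63, adjusted p = 0.037) and without ATM knock-out APH replicate 1 (−0.84, adjusted p = 0.00405). At 24 h it was −1.1 ± 0.40 (adjusted p = 0.136), and was called with no count filter (−1.12, adjusted p = 0.0447). Differences between the 24 h and the 4 h response were called for 4 members in the ATM knock-out line (22% of all genes), 2 in wtATM (15.1%), 5 in the ATMIN knock-out line (21.1%) and 1 in wtATMIN (18.6%), together 12 of 40 against 19.2% of all results. Beyond Dusp1 and Dusp5, Dusp6 had the smaller response at 24 h in wtATM (−0.68 ± 0.12, adjusted p = 6.04e-05) and in the ATMIN knock-out line (−0.56 ± 0.17, adjusted p = 0.0132). Dusp4 had the larger response at 24 h in ATM knock-out cells (0.57 ± 0.16, adjusted p = 0.00998), a call lost without APH 4 h replicate 2 (0.38, adjusted p = 0.0787) or in a fit to the compared groups alone (0.53, adjusted p = 0.0622). Spry1 had the lower response at 24 h in ATM knock-out cells (−0.61 ± 0.22, adjusted p = 0.0378) and in ATMIN knock-out cells (−1.0 ± 0.29, adjusted p = 0.0106), as did Spry2 in ATMIN knock-out cells (−0.65 ± 0.20, adjusted p = 0.0178). Each of these 3 Sprouty calls depended on single libraries. The Spry1 call in ATM knock-out cells was lost without any 1 of 6 of its 8 libraries (−0.46 to −0.67), with library size scaling only, with no count filter, in DESeq2 and in the compared groups alone. In ATMIN knock-out cells the Spry1 call was lost without replicate 2 of DMSO at 4 h, DMSO at 24 h or APH at 24 h (adjusted p between 0.0512 and 0.0591), and the Spry2 call without replicate 2 of any 1 of its 4 groups (adjusted p between 0.0585 and 0.0906). The Gm42418 level differed between the 24 h and the 4 h libraries, as given above, and its part in these differences was not tested.

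The ATM knock-out line had more RNA of most feedback genes than wtATM, in DMSO and APH alike. Dusp2, Dusp4, Dusp5, Spry1, Spry2, Spry4, Spred1 and Spred2 were higher in all 4 conditions, and Dusp1 was lower in all 4. The 4 conditions compare the same 2 lines, and the share of all genes called alike in all 4 was not computed. Members called numbered 10 of 10 with APH at 24 h (61.3% of all genes were called), 10 with DMSO at 24 h (59.3%), 9 with APH at 4 h (58.9%) and 10 with DMSO at 4 h (55.2%). Of 40 results, 35 were higher (29.6% of all results were) and 4 were lower (29%), together 97.5% against 58.7%. The members' median log2 difference was 1.68, 1.46, 1.00 and 1.34 in those conditions, and that of all genes was between 0 and 0.03. The summed fibroblast markers were lower in the ATM knock-out line, as given above, and their part in these differences was not tested.

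Dusp4 and Spry4 had the 2 largest log2 differences of the members in each condition. With APH at 24 h Dusp4 stood at 60 and 62.4 CPM in ATM knock-out cells, against 2.39 and 1.56 CPM in wtATM (4.93 ± 0.18, adjusted p = 1.83e-22). With DMSO at 24 h it stood at 47.7 and 45.3 CPM in ATM knock-out cells, against 0.99 and 0.407 CPM in wtATM (6.03 ± 0.22, adjusted p = 1.19e-22). With APH at 4 h it stood at 101 and 74.9 CPM in ATM knock-out cells, against 6.19 and 6.07 CPM in wtATM (3.85 ± 0.15, adjusted p = 2.38e-21). Every ATM knock-out sample was far above every wtATM sample. With DMSO at 4 h it stood at 105 and 95.7 CPM in ATM knock-out cells, against 4.65 and 4.6 CPM in wtATM (4.43 ± 0.16, adjusted p = 9.83e-23).

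Spry4 was low in wtATM. Its 8 ATM knock-out samples ran from 26.2 to 43.1 CPM, against 0.116 to 1.59 CPM (2 to 27 reads) in the 8 wtATM samples. The log2 difference was 5.52 ± 0.26 with APH at 24 h (adjusted p = 4e-18), 5.86 ± 0.30 with DMSO at 24 h (adjusted p = 3.19e-17), 4.58 ± 0.26 with APH at 4 h (adjusted p = 5.88e-16) and 5.23 ± 0.28 with DMSO at 4 h (adjusted p = 1.49e-16). Spry1 followed, with 6.98 to 13.7 CPM in the ATM knock-out line and 0.33 to 1.23 CPM in wtATM, and log2 differences from 2.97 ± 0.23 (APH 4 h, adjusted p = 7.99e-14) to 4.95 ± 0.24 (DMSO 24 h, adjusted p = 2.25e-19). Neither gene had overlapping samples between the lines. Spry2 was nearer, with 32.3 to 44.2 CPM in the ATM knock-out line and 10.3 to 19.4 CPM in wtATM, and log2 differences from 1.00 ± 0.11 (APH 4 h, adjusted p = 1.43e-09) to 1.87 ± 0.12 (APH 24 h, adjusted p = 2.6e-16).

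**Figure D3:**
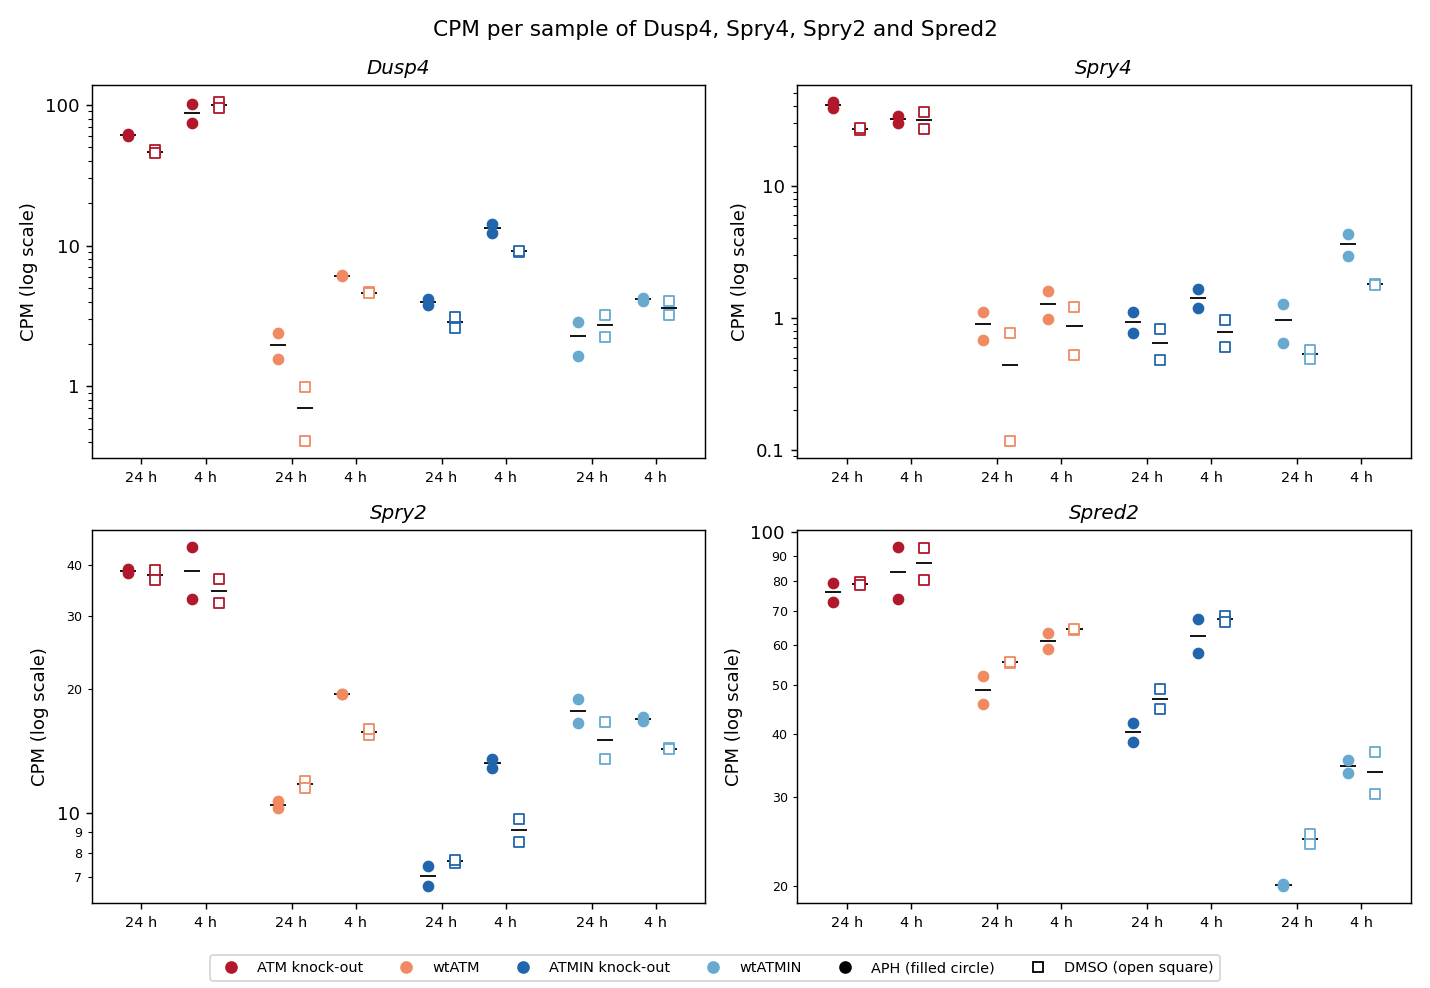
CPM (y axes, log scale) of Dusp4, Spry4, Spry2 and Spred2 in each of the 32 samples, by line (colour), time (x axis) and treatment, with the mean of each pair as a short black line. For Dusp4 and Spry4 the ATM knock-out samples lie apart from all other samples, and for Spred2 the wtATMIN samples lie lowest.

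Dusp5 was higher in the ATM knock-out line by 1.98 ± 0.10 with APH at 24 h (adjusted p = 2.52e-19), 1.89 ± 0.09 with DMSO at 24 h (adjusted p = 2.02e-19), 0.67 ± 0.09 with APH at 4 h (adjusted p = 1.01e-07) and 1.54 ± 0.09 with DMSO at 4 h (adjusted p = 1.58e-16). Dusp6 was higher by 1.06 ± 0.08 with APH at 24 h (adjusted p = 4.77e-14), 0.94 ± 0.08 with DMSO at 24 h (adjusted p = 1.65e-12) and 0.58 ± 0.08 with DMSO at 4 h (adjusted p = 2.17e-07). With APH at 4 h the Dusp6 samples overlapped between the lines, and this was the 1 result of 40 that was not called (−0.02 ± 0.08, adjusted p = 0.836). Spred1, at 72.2 to 119 CPM in the ATM knock-out line and 50.7 to 70.7 CPM in wtATM, was higher by 0.55 to 0.99. Spred2, at 73 to 93.6 CPM in the ATM knock-out line and 45.8 to 64.4 CPM in wtATM, was higher by 0.43 to 0.64, and its value with APH at 4 h was 0.26 (adjusted p = 0.0359) without ATM knock-out replicate 1.

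Dusp1 went the other way. It ran from 7.41 to 22 CPM in ATM knock-out cells, against 25.7 to 69.9 CPM in wtATM, with no overlap. The log2 difference was −1.15 ± 0.09 with APH at 24 h (adjusted p = 6.6e-14), −1.66 ± 0.11 with DMSO at 24 h (adjusted p = 3.51e-16), −2.22 ± 0.10 with APH at 4 h (adjusted p = 9.87e-21) and −1.96 ± 0.10 with DMSO at 4 h (adjusted p = 4.46e-19). Dusp2 had 11 to 33 reads per library in the ATM knock-out line and 1 to 10 in wtATM. Its calls with APH at 24 h (1.48, adjusted p = 0.0288), DMSO at 24 h (1.24, adjusted p = 0.0461) and APH at 4 h (2.39, adjusted p = 0.000472) were each lost without at least 1 library. At 24 h DESeq2 lost both as well (adjusted p = 0.0896 and 0.133), and library size scaling only lost the DMSO call (adjusted p = 0.0539). The APH 24 h call needed wtATM replicates 1 and 2 and ATM knock-out replicate 2 (1.27 to 1.64, adjusted p up to 0.145), the DMSO 24 h call needed all 4 libraries (1.05 to 1.48, adjusted p up to 0.195), and the APH 4 h call needed ATM knock-out replicate 1 (1.68, adjusted p = 0.0515). With DMSO at 4 h the value of 2.50 became 4.24 without wtATM replicate 2, which left a single read in wtATM.

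**Figure D4:**
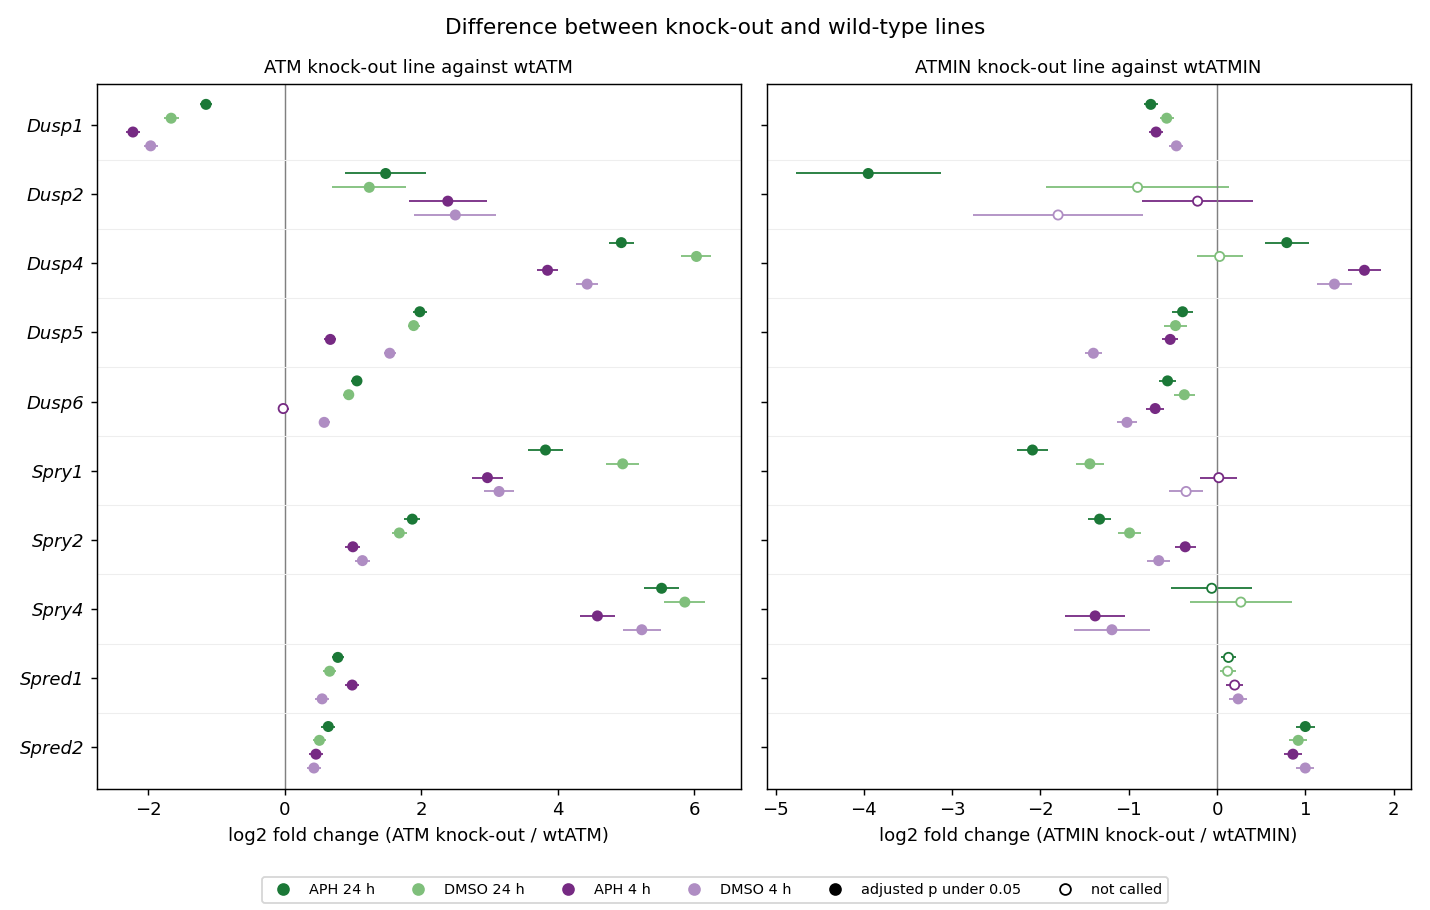
Log2 fold change of the knock-out line over its wild-type line (x axes, which differ in range) with its standard error, for ATM (left) and ATMIN (right), for the 10 members (y axis) in 4 conditions. Filled points passed an adjusted p under 0.05. Spry4, Dusp4 and Spry1 lie farthest right for ATM, Dusp1 lies left of 0 for both pairs, and Dusp5, Dusp6 and Spry2 lie right of 0 in all filled points for ATM and left of 0 for ATMIN.

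In the ATMIN knock-out line most called members were lower than in wtATMIN. Dusp1, Dusp5, Dusp6 and Spry2 were lower in all 4 conditions, and Spred2 was higher in all 4. Here too the 4 conditions compare the same pair of lines, and the share of all genes called alike in all 4 was not computed. Members called numbered 8 with APH at 24 h (50.6% of all genes were called), 6 with DMSO at 24 h (49.6%), 7 with APH at 4 h (42.1%) and 8 with DMSO at 4 h (44.9%). Of 40 results, 8 were higher (22.2% of all results were) and 21 were lower (24.6%), together 72.5% against 46.8%. The members' median log2 difference was −0.47, −0.42, −0.29 and −0.56 in those conditions, and that of all genes was −0.01 in each. The summed fibroblast markers were higher in the ATMIN knock-out line, as given above, and their part in these differences was not tested.

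Dusp6 stood at 12.5 and 13.5 CPM in the ATMIN knock-out line with APH at 24 h, against 18.2 and 20.1 CPM in wtATMIN (−0.56 ± 0.10, adjusted p = 1.97e-05). With DMSO at 24 h it stood at 7.64 and 8.28 CPM in the knock-out line, against 10.3 and 10.2 CPM in wtATMIN (−0.37 ± 0.12, adjusted p = 0.0117). With APH at 4 h it stood at 18.7 and 19.6 CPM in the knock-out line, against 28.9 and 33.1 CPM in wtATMIN (−0.70 ± 0.10, adjusted p = 1.73e-07). The knock-out samples were lower throughout. With DMSO at 4 h it stood at 8.56 and 7.36 CPM in the knock-out line, against 15.8 and 16.4 CPM in wtATMIN (−1.02 ± 0.11, adjusted p = 2.29e-09). The DMSO 24 h call was lost without replicate 1 of the knock-out line (−0.31, adjusted p = 0.11) or of wtATMIN (−0.33, adjusted p = 0.0916).

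Dusp5 was lower by −0.39 ± 0.12 with APH at 24 h (adjusted p = 0.00544), −0.47 ± 0.13 with DMSO at 24 h (adjusted p = 0.00267), −0.53 ± 0.09 with APH at 4 h (adjusted p = 1.1e-05) and −1.40 ± 0.10 with DMSO at 4 h (adjusted p = 9.57e-14). The APH 24 h call was lost without replicate 2 of the ATMIN knock-out line (−0.25, adjusted p = 0.162) or of wtATMIN (−0.32, adjusted p = 0.0708). Dusp1 ran from 37 to 65 CPM in the ATMIN knock-out line and from 57.8 to 110 CPM in wtATMIN. In each condition its knock-out samples were below their wtATMIN counterparts, with log2 differences between −0.75 ± 0.08 (APH 24 h, adjusted p = 1.7e-10) and −0.46 ± 0.08 (DMSO 4 h, adjusted p = 6.79e-06). Spry2 stood at 7.45 and 6.65 CPM in the knock-out line with APH at 24 h, against 18.9 and 16.5 CPM in wtATMIN (−1.33 ± 0.13, adjusted p = 8.33e-11). Its difference with APH at 4 h was smaller (−0.36 ± 0.12, adjusted p = 0.0176) and lost its call without APH replicate 1 of the knock-out line (−0.32, adjusted p = 0.129) or replicate 1 or 2 of wtATMIN (adjusted p = 0.0832 and 0.0561).

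Spred2 stood at 38.6 and 42 CPM in the ATMIN knock-out line with APH at 24 h, against 20.2 and 20 CPM in wtATMIN (1.00 ± 0.11, adjusted p = 6.21e-10). It was higher by 0.86 to 1.00 in the other conditions. Spred1 was called higher with DMSO at 4 h (0.24 ± 0.10, adjusted p = 0.0384), a value between 0.07 and 0.44 when single libraries were left out. That Spred1 call was lost without knock-out replicate 1 (0.23), knock-out replicate 2 (0.25) or wtATMIN replicate 2 (0.07), and the value was 0.44 without wtATMIN replicate 1. It was lost too in DESeq2 (adjusted p = 0.0649), with library size scaling only (adjusted p = 0.186) and in a fit to the compared groups alone (adjusted p = 0.0775). With APH at 4 h its value of 0.20 was not called (adjusted p = 0.0945), but was in that fit to the compared groups (0.23, adjusted p = 0.00786). Dusp4 was higher with APH at 24 h (0.79 ± 0.25, adjusted p = 0.00811), APH at 4 h (1.67 ± 0.19, adjusted p = 3.13e-09) and DMSO at 4 h (1.33 ± 0.20, adjusted p = 9.6e-07), but stood at 3.11 and 2.59 CPM in the knock-out line and 3.21 and 2.25 CPM in wtATMIN with DMSO at 24 h. Its APH 24 h value was 1.31 without wtATMIN replicate 1 and 0.49 (adjusted p = 0.154) without wtATMIN replicate 2.

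The remaining Sprouty genes differed at 1 time each. Spry1 stood at 2.31 and 1.88 CPM in the ATMIN knock-out line with APH at 24 h, against 8.5 and 9.51 CPM in wtATMIN (−2.09 ± 0.18, adjusted p = 4.45e-12). With DMSO at 24 h it stood at 4.18 and 4.74 CPM in the knock-out line, against 13 and 11 CPM in wtATMIN (−1.44 ± 0.16, adjusted p = 8.78e-10). At 4 h its differences of 0.02 (APH) and −0.35 (DMSO) were not called. Spry4 was lower at 4 h with APH (−1.38 ± 0.34, adjusted p = 0.00125) and with DMSO (−1.19 ± 0.43, adjusted p = 0.0231), while its 24 h differences of −0.06 and 0.27 were not called. The DMSO call was lost without knock-out replicate 2 (−0.89, adjusted p = 0.19), wtATMIN replicate 1 (adjusted p = 0.0769) or wtATMIN replicate 2 (adjusted p = 0.0843). Dusp2 was called with APH at 24 h, with 0 and 2 reads in the knock-out line and 25 and 10 reads in wtATMIN (adjusted p = 0.00011). The ratio of those reads per library size was 0.0565, with an exact 95% interval of 0.00658 to 0.22 that covers counting error only. Without knock-out replicate 2 the line had 0 reads and the call held (adjusted p = 0.000352).

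The DMSO samples themselves differed between 24 h and 4 h. Time in culture and any difference between batches of libraries cannot be told apart here. Dusp1 was lower and Spred1 was higher at 24 h in all 4 lines, and the share of all genes called alike in all 4 was not computed. Members called numbered 6 in the ATM knock-out line (48.7% of all genes), 5 in wtATM (46.4%), 5 in the ATMIN knock-out line (47.2%) and 7 in wtATMIN (55.5%). The 23 of 40 results called, 8 higher (25.1% of all results were) and 15 lower (24.4%), made 57.5% against 49.5%, which is near the general rate. Dusp1 differed by −0.45 ± 0.12 in the ATM knock-out line (adjusted p = 0.00184), −0.75 ± 0.09 in wtATM (adjusted p = 8.19e-09), −0.33 ± 0.08 in the ATMIN knock-out line (adjusted p = 0.000889) and −0.23 ± 0.08 in wtATMIN (adjusted p = 0.0119). Its call was lost in the ATM knock-out line without DMSO 24 h replicate 2 (−0.33, adjusted p = 0.0659). In wtATMIN it was lost without replicate 2 at either time (−0.15 and −0.19, adjusted p = 0.196 and 0.106) and with library size scaling only (−0.10, adjusted p = 0.269). Under that scaling the median of all genes shifted by 0.13 in wtATMIN, and the Dusp1 change in the ATMIN knock-out line was −0.21. Spred1 differed by 0.47 ± 0.09 in ATM knock-out cells, 0.36 ± 0.10 in wtATM, 0.43 ± 0.09 in the ATMIN knock-out line and 0.56 ± 0.10 in wtATMIN, with adjusted p-values between 6.6e-06 and 0.00203. The wtATM call needed DMSO 4 h replicate 2 (0.28, adjusted p = 0.0601). Gm42418, which differed between the times in DMSO too, was not tested for a part in these differences.

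**Figure D5:**
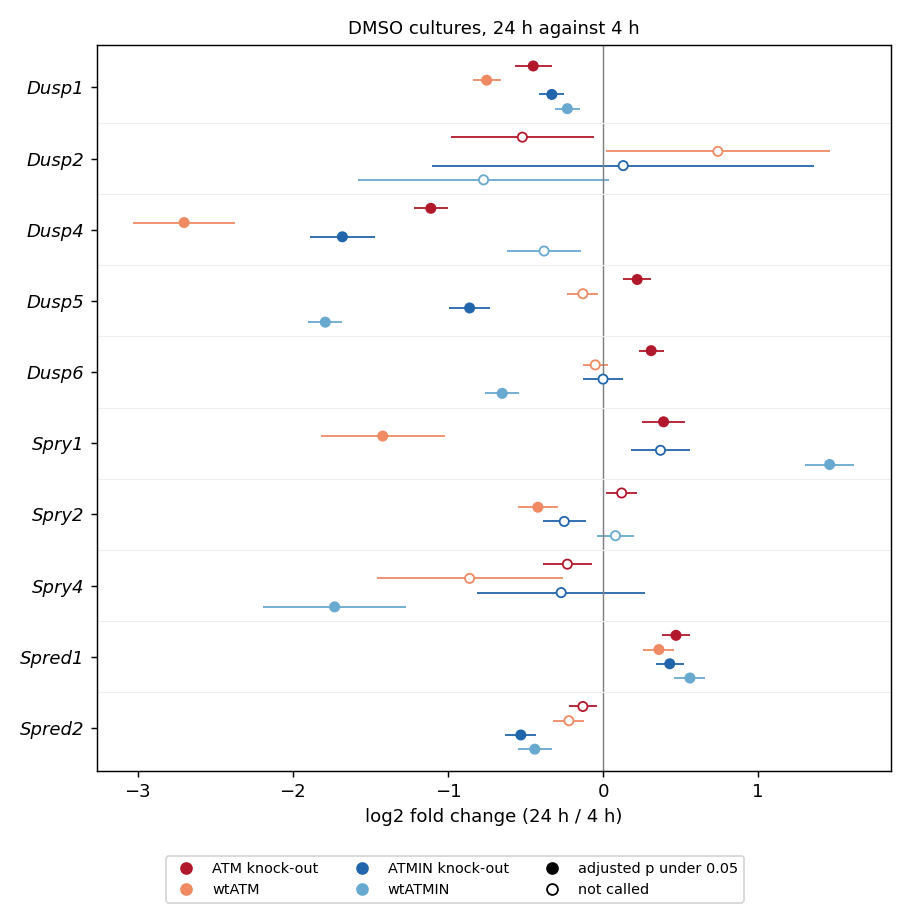
Log2 fold change of DMSO cultures at 24 h over 4 h (x axis) with its standard error, for the 10 members (y axis) in the 4 lines. Filled points passed an adjusted p under 0.05. Dusp1 lies left of 0 and Spred1 right of 0 in every line, and Dusp4 reaches −2.70 in wtATM.

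Dusp4 was lower at 24 h in 3 lines, and most in wtATM, where it stood at 0.99 and 0.407 CPM at 24 h against 4.65 and 4.6 CPM at 4 h (−2.70 ± 0.33, adjusted p = 2.9e-08). It differed by −1.11 ± 0.11 in the ATM knock-out line (adjusted p = 1.43e-09), −1.68 ± 0.21 in the ATMIN knock-out line (adjusted p = 4.49e-08) and −0.38 ± 0.24 in wtATMIN, where it was not called (adjusted p = 0.188). Dusp5 in wtATMIN stood at 11.3 and 11.1 CPM at 24 h, against 35 and 42.4 CPM at 4 h (−1.79 ± 0.11, adjusted p = 3.36e-16). The ATMIN knock-out line also had less Dusp5 at 24 h (−0.86 ± 0.13, adjusted p = 7.84e-07). Spry1 in wtATMIN stood at 13 and 11 CPM at 24 h, against 4.05 and 4.73 CPM at 4 h (1.46 ± 0.16, adjusted p = 8.93e-10). In wtATM Spry1 differed by −1.42 ± 0.40 (adjusted p = 0.00405), a call lost without DMSO 4 h replicate 2 (−1.14, adjusted p = 0.123) or DMSO 24 h replicate 1 (−1.19, adjusted p = 0.063).

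The other called members differed less between the times or in fewer lines. Dusp6 was higher at 24 h in ATM knock-out cells (0.31 ± 0.08, adjusted p = 0.00133) and lower in wtATMIN (−0.65 ± 0.11, adjusted p = 3.94e-06). Spred2 was lower at 24 h in ATMIN knock-out cells (−0.53 ± 0.10, adjusted p = 2.81e-05) and in wtATMIN (−0.44 ± 0.11, adjusted p = 0.00058). Spry4 was lower in wtATMIN (−1.73 ± 0.46, adjusted p = 0.00181). Small differences in Dusp5 and the other Sprouty genes depended on single libraries. Dusp5 differed by 0.22 ± 0.09 in ATM knock-out cells (adjusted p = 0.0344), a call lost without DMSO 24 h replicate 1 (0.17), without DMSO 4 h replicate 1 or 2 and in DESeq2 (adjusted p between 0.0832 and 0.205). Spry1 differed by 0.39 ± 0.14 there (adjusted p = 0.0251), a call lost without DMSO 24 h replicate 2 (0.24), without DMSO 4 h replicate 1 or 2 and in DESeq2 (adjusted p between 0.0741 and 0.299). Spry2 in wtATM differed by −0.42 ± 0.13 (adjusted p = 0.00608), and was not called without DMSO 4 h replicate 2 (−0.39, adjusted p = 0.062). Some uncalled differences were called in an alternative: Spred2 in wtATM (−0.22, adjusted p = 0.0662) with RLE factors (adjusted p = 0.0498) and in the compared groups alone (adjusted p = 0.0021), Spry4 in wtATM without DMSO 24 h replicate 1 (−2.75, adjusted p = 0.0189), and Spry1 in ATMIN knock-out cells with library size scaling only (0.49, adjusted p = 0.0286).

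The wild-type lines differed from each other as well. In DMSO, 7 of 10 members were called between wtATM and wtATMIN at 24 h (61.7% of all genes were called) and 6 at 4 h (57.2%). The 13 calls of 20 lay close to the 59.4% of all results. Dusp6 at 24 h stood at 44.9 and 51.3 CPM in wtATM, against 10.3 and 10.2 CPM in wtATMIN (2.23 ± 0.10, adjusted p = 6.58e-21), and at 4 h at 52.5 and 47.2 CPM in wtATM, against 15.8 and 16.4 CPM in wtATMIN (1.63 ± 0.09, adjusted p = 5.08e-17). Spry1 at 24 h stood at 0.33 and 0.465 CPM in wtATM, against 13 and 11 CPM in wtATMIN (−4.91 ± 0.24, adjusted p = 2.48e-19). Beside the Dusp6 gap of 2.23 between wild-type lines, the knock-out differences in DMSO at 24 h were 0.94 for ATM and −0.37 for ATMIN, and the sizes were not tested against each other. Spred2 was higher in wtATM by 1.16 ± 0.10 in the 24 h cultures (adjusted p = 2.65e-12) and by 0.93 ± 0.10 in those of 4 h (adjusted p = 6.06e-10), while the Dusp1 difference was −1.21 ± 0.08 (24 h, adjusted p = 4.14e-15) and −0.68 ± 0.08 (4 h, adjusted p = 4.59e-09).

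Dusp4 at 24 h stood at 0.99 and 0.407 CPM in wtATM, against 3.21 and 2.25 CPM in wtATMIN (−1.97 ± 0.34, adjusted p = 6.69e-06), and its 4 h difference of 0.35 was not called (adjusted p = 0.212). Dusp5 at 24 h stood at 28.1 and 29.1 CPM in wtATM, against 11.3 and 11.1 CPM in wtATMIN (1.35 ± 0.11, adjusted p = 3.04e-13). At 4 h it stood at 30.7 and 31.7 CPM in wtATM, against 35 and 42.4 CPM in wtATMIN (−0.31 ± 0.10, adjusted p = 0.00682). Dusp5 was thus the higher in wtATM at 24 h and the lower at 4 h, and the 4 h call was lost without wtATM replicate 1 (−0.29, adjusted p = 0.0528) or wtATMIN replicate 2 (−0.17, adjusted p = 0.242). Spry1 was lower in wtATM at 4 h too (−2.03 ± 0.25, adjusted p = 1.07e-08). Spry2 was called at 24 h (−0.37 ± 0.12, adjusted p = 0.00915), but not without wtATM replicate 2 (−0.34, adjusted p = 0.0627) or wtATMIN replicate 1 (−0.17, adjusted p = 0.357). Spry4 was called at 4 h (−1.11 ± 0.45, adjusted p = 0.0372), with −1.77 without wtATM replicate 1. That Spry4 call was lost without wtATM replicate 2 (−0.57, adjusted p = 0.398), wtATMIN replicate 1 (adjusted p = 0.0979) or wtATMIN replicate 2 (adjusted p = 0.0985).

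Other genes of the pathway, in lists chosen with earlier results of these data known, gave the setting of these changes under APH. Of all genes, 29.4% were called at 4 h in ATM knock-out cells, 5.58% in wtATM, 20.4% in the ATMIN knock-out line and 15% in wtATMIN, and at 24 h 27.9%, 28.7%, 30.2% and 28.8% in the same lines. The all-gene median log2 change at 4 h was 0, −0.01, −0.02 and −0.01 in those lines, and at 24 h 0.01, 0, 0 and 0. Of 20 ERK-responsive genes, those higher and lower at 4 h numbered 3 and 6 in the ATM knock-out line, 8 and 1 in wtATM, 17 and 1 in the ATMIN knock-out line, and 10 and 2 in wtATMIN. At 24 h they numbered 6 and 2, 4 and 11, 4 and 6, and 8 and 3 in the same lines. The list's median log2 change at 4 h was −0.11 in ATM knock-out cells, 0.29 in wtATM, 0.68 in the ATMIN knock-out line and 0.36 in wtATMIN. At 24 h it was 0.11, −0.29, 0.17 and 0.16 in the same lines. The share of the list called, in either direction, was above that of all genes in each of the 8 comparisons. Ier3, an early response gene, and Lif, a cytokine gene, were higher in all 4 lines at both times. Ier3 rose by 0.49 to 0.96 at 24 h and by 0.61 to 0.93 at 4 h. Lif rose by 0.61 to 1.37 at 24 h and by 0.73 to 2.25 at 4 h, and its 24 h call in the ATMIN knock-out line was lost without DMSO replicate 1 (0.43, adjusted p = 0.0685).

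Upstream of Ras, 6 of 12 growth factor ligand genes were higher and 0 lower at 4 h in the ATM knock-out line, and likewise in wtATM, with 7 and 0 in the ATMIN knock-out line and 5 and 0 in wtATMIN. At 24 h the higher and lower ligands numbered 4 and 0, 2 and 3, 1 and 1, and 3 and 3 in the same lines. The list's median at 4 h was 0.64, 0.51, 0.93 and 0.36 in that order of lines, and at 24 h it was 0.42, −0.08, −0.06 and 0.13. Ereg, which encodes epiregulin, a ligand of the EGF receptor family, was higher in all 4 lines at 4 h, by 0.78 ± 0.10 in the ATM knock-out line (adjusted p = 5.91e-07), 1.12 ± 0.09 in wtATM (adjusted p = 3.62e-11), 1.81 ± 0.10 in the ATMIN knock-out line (adjusted p = 4.63e-16) and 0.77 ± 0.08 in wtATMIN (adjusted p = 1.05e-08). Of 9 tested receptor tyrosine kinase genes (10 in the list), those higher and lower at 24 h numbered 4 and 1 in ATM knock-out cells, 0 and 4 in wtATM, 1 and 7 in the ATMIN knock-out line, and 1 and 5 in wtATMIN, with medians of 0.15, −0.19, −0.51 and −0.29. At 4 h they numbered 2 and 2, 1 and 0, 2 and 3, and 1 and 1 in the same lines, with medians of −0.07, 0.18, −0.14 and 0.03. The 20 adaptor, Ras and kinase genes had medians between −0.12 and 0.02 over all 8 comparisons, though calls went both ways. Those higher and lower at 4 h numbered 5 and 5 in ATM knock-out cells, 1 and 0 in wtATM, 1 and 3 in the ATMIN knock-out line, and 2 and 3 in wtATMIN. At 24 h they numbered 6 and 4, 4 and 7, 2 and 1, and 2 and 2 in the same lines.

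Among other inhibitors, Dusp10, a phosphatase gene for p38 and JNK, was higher in all 4 lines at 4 h, by 0.28 in ATM knock-out cells, 0.56 in wtATM, 0.35 in the ATMIN knock-out line and 0.47 in wtATMIN. Its ATM knock-out call was lost in DESeq2 (adjusted p = 0.0592), with library size scaling only, with no count filter and in a fit to the compared groups alone. Leaving out single libraries lost its call in the ATM knock-out line (DMSO replicate 2, APH replicate 1 or APH replicate 2; 0.20 to 0.32), the ATMIN knock-out line (DMSO replicate 1 or APH replicate 2; 0.26 and 0.21) and wtATMIN (replicate 1 of DMSO or APH; 0.40 and 0.42). Dusp8 was higher in all 4 lines at 24 h, by 1.03 in ATM knock-out cells, 0.31 in wtATM, 0.63 in the ATMIN knock-out line and 1.01 in wtATMIN, and its wtATM call was lost without DMSO replicate 1 (0.38), DMSO replicate 2 (0.24) or APH replicate 2 (0.22). Of the 9 other DUSP, Sprouty and SPRED genes, 1 was higher and 2 lower at 4 h in ATM knock-out cells. The counts were 1 and 1 in wtATM, 2 and 1 in the ATMIN knock-out line, and 4 and 1 in wtATMIN. At 24 h they were 2 and 1, 1 and 1, 2 and 1, and 4 and 0 in the same lines. Errfi1, whose product inhibits the EGF receptor, was higher in all 4 lines at 4 h, by 0.23 in ATM knock-out cells, 0.48 in wtATM, 1.30 in the ATMIN knock-out line and 0.42 in wtATMIN. Its call was lost in wtATM without APH replicate 2 (0.34) and in the ATM knock-out line without DMSO replicate 1 (0.20), DMSO replicate 2 (0.23) or APH replicate 2 (0.16). In the ATM knock-out line it was lost also with library size scaling only, no count filter or the compared groups alone. Of the 6 other feedback inhibitors, Errfi1 included, 3 were higher and 2 lower at 4 h in ATM knock-out cells. The counts were 2 and 0 in wtATM, 2 and 1 in the ATMIN knock-out line, and 2 and 0 in wtATMIN. At 24 h they were 1 and 2, 0 and 2, 0 and 3, and 2 and 2 in the same lines. The 24 h medians were −0.08, −0.26, −0.26 and 0.13. Shares of all genes called are given above. In the JNK and p38 list of 14 genes, Gadd45a and Atf3, a pair of stress response genes, were higher in all 4 lines at 24 h, Gadd45a by 0.60 to 2.60 and Atf3 by 0.68 to 2.76. That list had 5 genes higher and 0 lower at 24 h in ATM knock-out cells and 4 and 0 in wtATM. In the ATMIN knock-out line and in wtATMIN it had 5 and 2 each.

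Over the 16 group means, the expression patterns of the members mostly ran together, except for Dusp1. Of 45 pairs of members, 27 had Pearson r above 0.5 and 8 had r below −0.5, all of them pairs with Dusp1. The highest was Dusp4 with Spry4 (0.92) and the lowest was Dusp1 with Spred1 (−0.80). These are descriptions over groups that share lines, with no test, and the share of all gene pairs with such r was not computed. The 16 means include the differences between lines given above, so r does not describe the APH response alone. Among 11089 other genes (11090 for Dusp2), the 2 of most similar pattern were Mlycd and Rcan1 for Dusp1 (0.947 each), Fam19a5 (0.899) and Spry2 (0.895) for Dusp2, Sema5a (0.948) and Zfp827 (0.943) for Dusp4, Phykpl (0.969) and Adat1 (0.968) for Dusp5, and Ramp3 (0.954) and Dyrk3 (0.951) for Dusp6. For the Sprouty genes they were Rnf150 (0.955) and Ttc28 (0.947) for Spry1, Smarce1 (0.958) and Trp53 (0.953) for Spry2, and Bambi (0.978) and Syn1 (0.977) for Spry4. Spred1 was nearest to Tcea1 (0.96) and Prkdc (0.952), and Spred2 to Cdh2 (0.983) and Fez2 (0.966). In the authors' deposited tables, 100 values concern the members. Of these, 69 were called both there and in the matching comparison here, 1 only there and 9 only here, with no opposite sign among values called in both. Those tables rest on the same samples. They compare knock-out with wild-type lines, and APH with DMSO in wtATMIN only, so the APH changes of the other lines were not compared.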

How the data were processed

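RNA of 32 samples was sequenced from libraries made with Illumina's TruSeq RNA kit, per the labels' protocols. The authors deposited raw read counts per Ensembl gene, and the submitters' processing notes name Bowtie2 2.4.0, TopHat2 2.0.13, DESeq2 1.6.3 and build mm10. The counting tool, strand setting and annotation release are not given in the sources used here. The authors also deposited comparison tables with log2 fold changes, adjusted p-values and gene lengths in bases, per the file headers, used here only for symbols, lengths and the comparison of calls. Their AT and UT were read as APH and DMSO, the only treatments in the labels, and pos and neg as wild type and knock-out. These tables also hold 120 columns of single samples that were not used.

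Counts were filtered by group (filterByExpr), scaled by TMM and fitted with edgeR 4.0.16 in R 4.3.3, as 1 quasi-likelihood model over 16 groups, so that all groups share an estimate of spread (common coefficient of variation 0.0643). P-values were adjusted by Benjamini-Hochberg over 18484 genes in each of 30 comparisons, with calls at an adjusted p under 0.05. Log2 fold changes carry their standard error. The procedure was tested on counts simulated from the wtATM DMSO 4 h means, with the same spread for every gene and changes only in well-counted genes. That test did not cover genes with few reads, differences between lines or outlying libraries. CPM used library sizes multiplied by TMM factors.

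The members, gene lists and tests were chosen with earlier results of these data known. The rule for named genes takes all 10 members in every comparison (members not called are mostly given by count), genes of each list called alike with APH in all 4 lines at a time, and for each member the 2 genes of most similar pattern. As alternatives, DESeq2 1.42.0 replaced edgeR, RLE factors or plain library size replaced TMM, the count filter was dropped, a replicate block was added, each comparison was fitted on its own groups, and 32 fits left out 1 library each. A group left with 1 sample was assumed to vary like the others. Promoters came from RefSeq, and 8 of 10 members matched.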

Additional observations from a re-analysis of the deposited data

Results flagged for a closer look

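Response differences between lines or times that passed edgeR's test are collected here. Between a knock-out line and its wild type, the APH response at 4 h differed for ATM by −0.88 in Dusp5, −0.60 in Dusp6 and 0.44 in Spred1, and for ATMIN by 0.87 in Dusp5. At 24 h it differed for ATM by 0.52 in Dusp1. A fit to the compared groups alone lost the ATM calls of Dusp5, Dusp6 and Spred1 (adjusted p = 0.0566, 0.114 and 0.208).

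Between 24 h and 4 h, the response of Dusp1 was larger by 1.07 in the ATM knock-out line, 1.05 in the ATMIN knock-out line and 1.01 in wtATMIN. Dusp4 in the ATM knock-out line was larger by 0.57 (adjusted p = 0.00998), but not called without APH 4 h replicate 2 (0.38, adjusted p = 0.0787) or in a fit to the compared groups alone (adjusted p = 0.0622). The differences for Dusp5 were −1.21 in wtATM and −0.99 in the ATMIN knock-out line, and those for Dusp6 were −0.68 and −0.56 in the same lines. The Dusp6 call in the ATMIN knock-out line was lost without DMSO replicate 2 of 4 h (−0.45) or of 24 h (−0.50), or without APH 24 h replicate 1 (−0.51).

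Spry1 had a difference of −0.61 in the ATM knock-out line (adjusted p = 0.0378) and of −1.0 in the ATMIN knock-out line (adjusted p = 0.0106). The ATM knock-out call was lost without any 1 of 6 libraries (−0.67 to −0.46) and with DESeq2 (adjusted p = 0.13), library size scaling only, no count filter or the compared groups alone. The libraries were both DMSO and both APH samples of 4 h and replicate 2 of DMSO and APH at 24 h. The ATMIN knock-out call was lost without replicate 2 of DMSO 4 h, DMSO 24 h or APH 24 h (−0.88 to −0.91). Spred1 in the ATM knock-out line differed by −0.44 (adjusted p = 0.0132), a call lost without DMSO 4 h, APH 4 h or DMSO 24 h replicate 2 (−0.36 to −0.31), with library size scaling only (adjusted p = 0.0863) and with the compared groups alone (adjusted p = 0.0672). Spry2 in the ATMIN knock-out line differed by −0.65 (adjusted p = 0.0178), a call lost without replicate 2 of any of its 4 groups (−0.63 to −0.55).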

How the results depend on the processing

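No called result of a member reversed in any alternative. The number of member calls moved by more than 1.5 times once: the 4 response differences between the ATM knock-out line and wtATM were 1 in a fit to the compared groups alone, which rests on fewer samples. Leaving out 1 library at a time, the calls ranged over 18 to 22 (APH at 24 h), 12 to 16 (APH at 4 h), 37 to 39 (ATM knock-out), 27 to 29 (ATMIN knock-out), 3 to 5 and 1 to 1 (response differences for ATM and ATMIN), 9 to 16 (24 h against 4 h response), 20 to 23 (DMSO times) and 11 to 13 (wild-type lines). Of 157 called results, 42 lost their call without at least 1 library. Samples with the same replicate number mostly did not deviate together (r between −0.292 and 0.181 over 22 comparisons, above 0.1 in 2 and under −0.1 in 5). The labels do not say whether the numbers pair samples, and these correlations cannot settle it. With the replicate block the counts were 22, 14, 39, 29, 4, 1, 13, 23 and 13 in that order, and only Spry4 in the ATM knock-out line changed its call, with a 24 h response above the 4 h response (0.59, adjusted p = 0.0434). Chosen after seeing the data, a crossed pairing was fitted for 5 comparisons with r under −0.1, on the compared groups alone. Choosing them by that r favours more calls with the crossed pairing, so no conclusion is drawn from the gain. The 2 comparisons with r above 0.1 were not fitted this way. Against a same-number block on the same few samples, the crossed pairing called 2640 genes (1202 with the block) for APH at 4 h and 7209 (5970) for APH at 24 h in ATM knock-out cells, 8469 (7541) and 11291 (10998) for ATM knock-out over wtATM with APH at 4 h and DMSO at 24 h, and 10855 (8649) for the DMSO times in wtATMIN. Members called in that order numbered 1 (0 with the block), 6 (6), 9 (9), 10 (10) and 7 (6). The main fit called 3 members for APH at 4 h in ATM knock-out cells. The Dusp1, Dusp6 and Spred1 calls there were thus lost with the same-number block on those samples. Library size scaling alone shifted the median of all genes by at most 0.128 and at least −0.115. The 6 other feedback inhibitors gave 7 calls at 4 h, against 12 with all libraries, without ATM knock-out DMSO replicate 2. Genes with few reads, Dusp2 in all lines, Spry4 outside the ATM knock-out line and Spry1 in wtATM, are limited by depth.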
